A study of Mus musculus with 6 samples.

Results

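Egr1, Fos, Fosl1, Jun, Junb, Ier2, Ier3, Dusp1, Atf3 and Myc were compared by RNA sequencing between Mpp8/Tasor double-knockout (dKO) and wild-type (WT) mouse embryonic stem (ES) cells. These 10 genes, Myc and a set of immediate early genes, were taken by gene name from a table of 57180 genes, and all 10 had enough reads to be among the 15714 genes tested. The dKO cells lack Mpp8 (gene Mphosph8) and Tasor, and the WT cells carry neither knockout. Both came from the C57BL/6 strain, with 3 libraries each of total RNA taken up in Trizol. MPP8 and TASOR are subunits of the human silencing hub (HUSH), a complex that keeps retroelements and some genes silent in H3K9-methylated chromatin. The labels give no passage, culture medium, clone identity or harvest time, and they do not say whether libraries of a genotype came from separate cultures or clones, so p-values measure only the spread between these libraries, which may be technical.

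Immediate early genes are transcribed within minutes of a growth factor, stress or adhesion signal, without new protein synthesis. Mitogen-activated protein (MAP) kinases of the ERK, JNK and p38 families pass the signal to factors already on the promoters, among them serum response factor with its ELK partners, and CREB. FOS and JUN proteins pair through leucine zippers into the AP-1 transcription factor, EGR1 is a zinc finger factor induced by the same routes, and DUSP1 closes the loop by dephosphorylating JNK and p38. Their messages are mostly short-lived, and so is that of Myc, whose protein drives growth and ribosome production and is kept stable in ES cells by LIF signalling. ES cells make FGF4 and so signal through ERK to themselves, and this signal pushes them towards differentiation.

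One of the 10 genes rose in dKO cells and 3 fell. Egr1 was 2.43-fold higher in dKO, while Jun, Junb and Dusp1 stood at 0.449, 0.423 and 0.555 of their WT level. Fos, Fosl1, Atf3, Ier2, Ier3 and Myc did not pass the threshold of 0.05 on the adjusted p (edgeR's quasi-likelihood test, Benjamini-Hochberg over every tested gene), which defines a call here. The comparison called 34.3% of tested genes, 16.4% of them higher and 17.9% lower in dKO as shares of all tested genes, so 4 of 10 is near the background. In CPM (counts scaled to library size), the 2 genotypes did not overlap for 4 of the 10 genes, against 49.2% of tested genes. An unadjusted p under 0.05 was reached by 6 of the 10, against 44.4%. The median log2 fold change of the 10 genes was -0.29, against -0.02 over all genes tested. None of the 10 lies on chromosome 14 or Y, where 70.5% of 525 and 75% of 12 tested genes were lower in dKO.

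**Figure D1:**
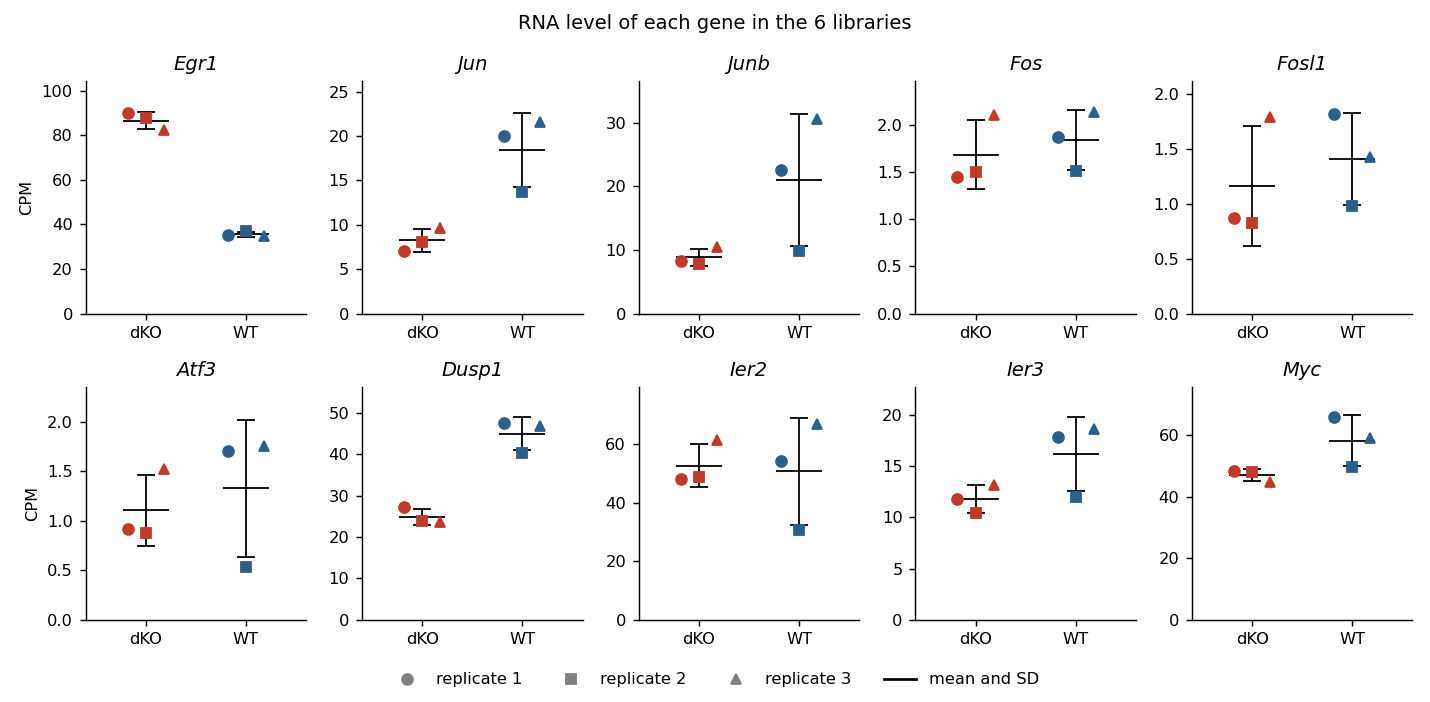
RNA level of each gene in CPM (counts scaled to library size, linear axes from 0) in the 3 dKO and 3 WT libraries. Symbols mark the replicate number, and the bars give the mean and SD of 3 libraries. Egr1 lies at 82.4 CPM or more in dKO and at 36.8 CPM or less in WT, and Junb in WT replicate 2 lies within reach of the dKO libraries.

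Total counts ran from 18384774 to 24910498 per library. By these totals 3 counts, the limit that a count of 0 allows, corresponded to 0.12 to 0.163 CPM, before the TMM scaling of the CPM values given here. These limits cover counting error only. Both targeted genes were low in every dKO library, with Mphosph8 at 0.138 ± 0.081 CPM in dKO and 128 ± 16 CPM in WT, and Tasor at 9.85 ± 1.04 CPM in dKO and 162 ± 33.7 CPM in WT (SD, n = 3 each). The ES cell markers Pou5f1, Sox2, Nanog, Zfp42, Esrrb, Dppa5a, Utf1 and Tdh were all tested and summed to 2401 to 2842 CPM in dKO and 2035 to 3041 CPM in WT. Of these 8, 1 was lower (Tdh, on chromosome 14) and 7 were not called. WT replicate 2 stood apart from the other libraries, with a mitochondrial share of counts of 2.29%, against 1.34% to 1.63% elsewhere, and a ribosomal protein share of 2.70%, against 3.48% to 4.85% elsewhere.

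The stretch just before the transcription start is shown for the 3 genes that fell and for Fos and Atf3, which were not called, so that their letters can be set side by side. Windows from RefSeq (GRCm38.p6) matched 6 of the 10 genes, namely Jun, Junb, Dusp1, Fos, Atf3 and Ier3, and no window was matched for Egr1, Fosl1, Ier2 and Myc. Each sequence is the 150 bases before the RefSeq start, 5′ to 3′ on the strand of the gene, searched on both strands. Capitals mark matches to the cyclic AMP response element (TGACGT, or TGACNTCA for the longer form), the AP-1 site (TGANTCA), the E-box bound by MYC and MAX (CACGTG), the CCAAT box, the TATA box (TATAAA) or the CArG box.
Jun: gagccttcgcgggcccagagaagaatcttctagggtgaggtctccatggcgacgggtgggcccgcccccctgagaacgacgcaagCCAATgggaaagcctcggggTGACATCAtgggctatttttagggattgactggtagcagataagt
Junb: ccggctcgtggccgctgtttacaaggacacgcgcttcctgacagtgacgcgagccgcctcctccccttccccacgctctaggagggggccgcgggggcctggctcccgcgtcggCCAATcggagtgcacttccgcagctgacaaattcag
Dusp1: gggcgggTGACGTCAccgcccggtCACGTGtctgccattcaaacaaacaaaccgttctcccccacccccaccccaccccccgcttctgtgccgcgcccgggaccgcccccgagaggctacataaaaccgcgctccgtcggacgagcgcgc
Fos: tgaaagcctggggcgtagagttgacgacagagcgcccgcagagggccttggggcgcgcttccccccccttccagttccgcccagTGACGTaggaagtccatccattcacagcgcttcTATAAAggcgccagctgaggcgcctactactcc
Atf3: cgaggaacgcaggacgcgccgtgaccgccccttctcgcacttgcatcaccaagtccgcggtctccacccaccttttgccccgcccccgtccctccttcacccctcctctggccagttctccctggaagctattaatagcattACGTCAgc
They lie at chr4:95052223-95052372, chr8:84978749-84978898 and chr17:26508473-26508622 on the minus strand for Jun, Junb and Dusp1, at chr12:85473740-85473889 on the plus strand for Fos, and at chr1:191183334-191183483 on the minus strand for Atf3.

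Counted over whole windows from 250 bases before to 50 after the start, Dusp1 held a full cyclic AMP response element, TGACGTCA, at -143 to -136, and Jun held TGACATCA at -45 to -38. TGACNTCA covers both and occurred in 2 of the 6 windows and in 8.83% of 32851 RefSeq windows. Its shorter relative TGACGT occurred in Dusp1, Fos and Atf3 and in 7.51% of windows. In Dusp1 the shorter form overlaps the full element and also occurs apart from it, at -191 to -186. Junb carried CCAAT at -36 to -32 as its sole match in the printed stretch, a motif found in 4 of the 6 windows and 37.4% of all. The AP-1 letters TGANTCA (7.81% of all windows) and the CArG box that binds serum response factor (1.63%) were in none of the 6 windows. CACGTG (7.15%) was in Dusp1 alone. TATAAA (13.6%) was in Fos at -33 to -28, before the start, and in Junb at 0 to 5, from the start base onwards. Only TGANTCA was counted as an AP-1 site, and TGACNTCA was counted as a cyclic AMP response element alone. Which factors bind the TGACATCA of Jun was not tested, so its absence from the AP-1 count does not mean that AP-1 has no site there. Further AP-1 forms, and sites of any kind beyond these windows, were not covered. No motif searched was held by Jun, Junb and Dusp1 alike and by none of the others.

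Egr1 (ENSMUSG00000038418, chromosome 18), the zinc finger factor that reads out ERK signalling, was the gene of the set that rose. It had 89.7, 87.5 and 82.4 CPM in dKO replicates 1, 2 and 3, against 35.3, 36.8 and 34.7 CPM in WT replicates 1, 2 and 3. The genotypes did not overlap, as was the case for 24.2% of tested genes with dKO above WT, and in CPM the libraries of each genotype lay close together. In the authors' TPM (scaled to depth and to transcript length) they were also apart but spread wider. TPM values were 34.15, 34.36 and 26.31 in dKO, against 12.11, 15.24 and 10.18 in WT. The mean was 86.6 ± 3.77 CPM in dKO and 35.6 ± 1.11 CPM in WT (SD, n = 3 each). On the log2 scale the change was 1.28 (SE 0.0921, adjusted p = 1.24e-05 by edgeR), with a 95% interval of the fold from 2.1 to 2.81. A rise of this size or more was called for 5.31% of tested genes. The rise was called in 13 of 13 alternative settings, with log2 values from 1.25 to 1.34.

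Jun (ENSMUSG00000052684, chromosome 4), which encodes the AP-1 subunit that binds its own promoter, had 7.11, 8.06 and 9.67 CPM in the dKO libraries, against 20.0, 13.8 and 21.6 CPM in the WT libraries. All dKO values lay below all WT values, as in 25% of tested genes. The log2 change was -1.15 (SE 0.197, adjusted p = 0.00194 by edgeR), with a 95% interval of the fold from 0.331 to 0.611. A fall of at least this size was called for 4.88% of tested genes. It was called in 13 of 13 alternatives.

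Junb (ENSMUSG00000052837, chromosome 8), a JUN relative that can temper JUN activity, had 8.27, 7.8 and 10.4 CPM in dKO, against 22.6, 9.83 and 30.5 CPM in WT. The dKO libraries were alike, whereas the WT libraries spanned a wide range. In CPM, WT replicate 2 lay below dKO replicate 3, so the genotypes overlapped. In the authors' TPM they did not, with dKO at 9.3 or less and WT at 10.97 or more. On the log2 scale Junb differed by -1.24 (SE 0.379, edgeR adjusted p = 0.0391), with a 95% interval of the fold from 0.229 to 0.780. The fall was called in 7 of 13 alternatives (adjusted p from 1.94e-05 to 0.198). It was not called without WT replicate 1 (0.0892) or 3 (0.0758), without dKO replicate 1 (0.118), 2 (0.124) or 3 (0.0533), or with no low-count filter (0.198), and without WT replicate 2 its log2 fold change was -1.59 with an adjusted p of 1.94e-05.

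Fos, Fosl1 and Atf3 were low in both genotypes. Fos (ENSMUSG00000021250, chromosome 12) had 30, 29 and 40 counts in dKO, against 34, 37 and 39 in WT, which is 1.45, 1.5 and 2.1 CPM in dKO against 1.87, 1.51 and 2.14 CPM in WT. The values of both genotypes fell in the same range, and the 95% interval of the fold ran from 0.589 to 1.43. Fosl1 (ENSMUSG00000024912, chromosome 19), encoding FRA-1, had 18, 16 and 34 counts in dKO, against 33, 24 and 26 in WT, with dKO replicate 3 as high as WT replicate 1. Its interval ran from 0.440 to 1.57, and its deposited counts are not whole, so part of its reads was assigned by a model. Atf3 (ENSMUSG00000026628, chromosome 1), a stress-induced zipper protein that pairs with JUN, had 19, 17 and 29 counts in dKO, against 31, 13 and 32 in WT, and its lowest and highest values were both WT. Its interval ran from 0.401 to 1.78. The intervals of Fosl1 and Atf3 hold both no change and a fall of the size seen in Jun, 0.449, so neither was excluded.

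Dusp1 (ENSMUSG00000024190, chromosome 17), the phosphatase that switches off JNK and p38, had 27.2, 23.9 and 23.7 CPM in dKO, against 47.6, 40.3 and 46.8 CPM in WT. The genotypes were clearly apart and each was tight in CPM. The mean was 24.9 ± 1.96 CPM in dKO and 44.9 ± 3.98 CPM in WT (SD, n = 3 each). The change was -0.85 on the log2 scale (SE 0.113, edgeR adjusted p = 0.000495), with a 95% interval of the fold from 0.465 to 0.663, and it was called in 13 of 13 alternatives.

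Ier2 (ENSMUSG00000053560, chromosome 8), an intronless growth factor-induced gene, had 48.0, 48.6 and 61.3 CPM in dKO, against 54.3, 30.8 and 66.8 CPM in WT. All dKO values lay within the WT range, and the log2 fold change was 0.06 (SE 0.259), with a 95% interval of the fold from 0.688 to 1.58. Ier3 (ENSMUSG00000003541, chromosome 17), which acts in survival signalling, had 11.8, 10.4 and 13.1 CPM in dKO, against 17.9, 12 and 18.7 CPM in WT. WT replicate 2 lay below dKO replicate 3 in CPM, so the genotypes overlapped. In the authors' TPM they did not, with dKO at 21.98 or less and WT at 23.5 or more. The difference was -0.45 on the log2 scale (SE 0.185, edgeR adjusted p = 0.0869), and Ier3 was called lower in 3 of 13 alternatives (adjusted p from 0.00307 to 0.245), among them those without WT replicate 2 (0.00307) and without a low-count filter (0.0365).

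Myc (ENSMUSG00000022346, chromosome 15) had 48.4, 48.2 and 44.7 CPM in dKO, against 66.0, 49.8 and 59.1 CPM in WT. Every dKO library lay below every WT library in CPM, but WT replicate 2 exceeded the dKO libraries by a narrow margin. In the authors' TPM the genotypes overlapped, with dKO replicate 2 at 40.93 and WT replicate 3 at 37.91. The mean was 47.1 ± 2.11 CPM in dKO and 58.3 ± 8.15 CPM in WT (SD, n = 3 each). The difference was -0.31 on the log2 scale (SE 0.12, edgeR adjusted p = 0.0762), with a 95% interval of the fold, not adjusted for multiple testing, from 0.670 to 0.97. Myc was called lower in 2 of 13 alternatives (adjusted p from 0.00378 to 0.452), one of them without WT replicate 2 (0.00378). In the authors' deposited table Myc had an adjusted p of 0.110, and the same table gave Egr1, Jun, Junb and Dusp1 adjusted p-values of 5.25e-28, 2.60e-06, 0.00082 and 3.77e-08.

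**Figure D2:**
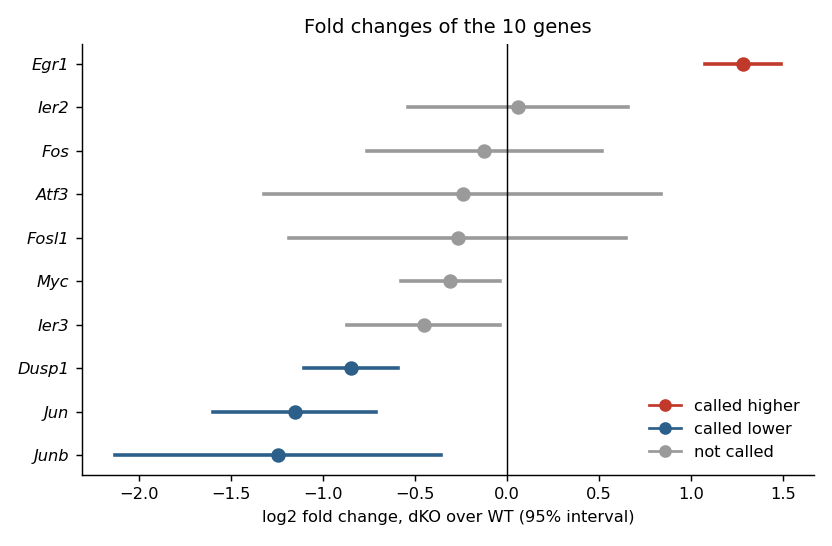
Fitted log2 fold changes of dKO over WT for the 10 genes, with 95% intervals that are not adjusted for multiple testing. Egr1 alone lies to the right with its interval clear of 0, Junb, Jun and Dusp1 lie to the left, and the intervals of Ier3 and Myc end close to 0, at -0.04 each.

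In CPM, WT replicate 2 was low for most of the genes. Relative to the mean of the other WT libraries, WT replicate 2 held 30.6% of the Atf3 level, 37% of Junb, 50.8% of Ier2, 65.7% of Ier3 and 66.1% of Jun. It was the lowest WT library in CPM for 9 of the 10 genes, against 40.1% of all tested genes, and Egr1 was the exception at 105%. In the authors' TPM, Egr1 and Dusp1 were highest in WT replicate 2 and Myc lay between the other WT libraries. The remaining genes were lowest there in TPM as well. Among dKO libraries, replicate 3 was the highest in CPM for 7 of the 10 genes, again against 40.1% of all tested genes. Egr1, Dusp1 and Myc were lowest there. In the authors' TPM, Junb, Ier2 and Atf3 were still highest in dKO replicate 3, but Fos, Fosl1, Jun and Ier3 were not. The pattern of dKO replicate 3 thus depended on the scale. The coefficient of variation of CPM over WT libraries was above the median of all tested genes (15.4%) for 7 of the 10. It reached 49.7% for Junb and 52.1% for Atf3, and was 3.12% for Egr1 and 8.88% for Dusp1. The part of the mitochondrial and ribosomal protein shares of WT replicate 2 in these values was not tested. Egr1, Jun and Dusp1 were also called without that library, at log2 fold changes of 1.31, -1.33 and -0.92.

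**Figure D3:**
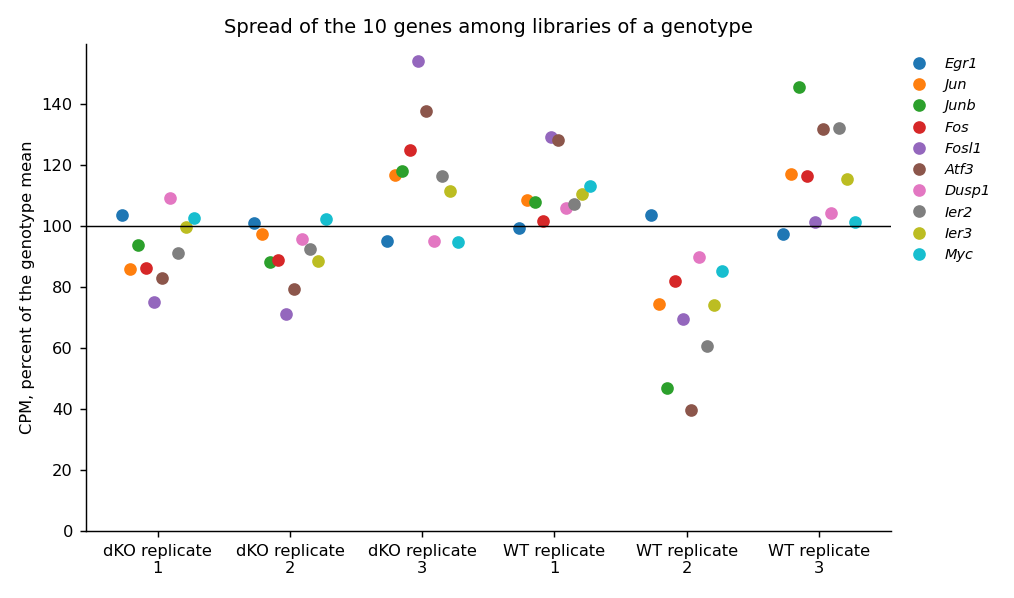
Each gene's CPM in each library as a percent of the mean of its genotype (linear axis from 0). In WT replicate 2 the genes other than Egr1 lie below 100%, and in dKO replicate 3 they lie above 100% except Egr1, Dusp1 and Myc.

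Levels between genes are compared in the authors' TPM, which are scaled to depth and to transcript length. In dKO the order from high to low was Ier2, Myc, Egr1, Dusp1, Ier3, Junb, Jun, Fosl1, Fos and Atf3, from 64.6 ± 3.08 TPM for Ier2 to 1.27 ± 0.31 TPM for Atf3 (SD, n = 3). The libraries of Myc and Egr1 overlapped, as did those of Dusp1 and Ier3, and of Fosl1, Fos and Atf3. In WT the order was Ier2, Myc, Dusp1, Ier3, Junb, Egr1, Jun, Fosl1, Fos and Atf3, from 58.5 ± 14.5 TPM for Ier2 to 1.11 ± 0.488 TPM for Atf3. Neighbours overlapped there except Dusp1 and Ier3, Egr1 and Jun, and Jun and Fosl1. Egr1 stood at place 3 with 31.6 ± 4.59 TPM in dKO and at place 6 with 12.5 ± 2.55 TPM in WT, while Fosl1, Fos and Atf3 stood at the low end in both.

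The genes share a compact build. In GENCODE M21 the longest coding transcript with an annotated 3′ untranslated region (UTR) had 1 exon for Jun, Junb and Ier2, 2 for Egr1 and Ier3, 3 for Myc and 4 for Dusp1, Fos, Fosl1 and Atf3, against a median of 7 over 21767 protein-coding genes. A transcript of 1 exon was found for 6.82% of those genes. The pentamer ATTTA, the core of AU-rich elements that mark messages for rapid decay, occurred at least 2 times in the 3′ UTR of 8 of the 10 genes and in 46.5% of 20928 genes with such a region. Ier3 held 5 copies, Jun, Dusp1 and Fos 4 each, Atf3 3, Egr1, Junb and Myc 2 each, Fosl1 1 and Ier2 0. The count did not part the gene that rose from those that fell.

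Over 9 lists of related genes with 172 tested genes, 58 (33.7%) were lower and 24 (14%) higher in dKO, against 17.9% and 16.4% of all tested genes. The lists were chosen with earlier results of these data known and include genes of chromosome 14, so these shares are a description and not a test. Of 20 further FOS, JUN, ATF, CREB and MAF genes 15 were tested, and 5 fell, 0 rose and 10 were not called, with a list median of -0.30 on the log2 scale against -0.02 for all tested genes. In that list 0 genes were higher by edgeR at an unadjusted p under 0.05, and 0 were called higher by DESeq2 or by limma on TPM. The count of 5 lower was 2 without dKO replicate 1 or 3, 3 without dKO replicate 2 or with library totals, and 1 by limma on TPM. Fosl2, encoding FRA-2, had 4.08 ± 0.795 CPM in dKO and 14.1 ± 2.65 CPM in WT (log2 -1.79, SE 0.203), and Creb1, which relays cyclic AMP and growth signals to these promoters, had 28.3 ± 1.76 CPM in dKO and 55.2 ± 6.98 CPM in WT (log2 -0.97, SE 0.119; SD, n = 3 each). Atf6 and Atf1 fell by 0.44 and 0.30 on the log2 scale. The call for Creb1 was not made by limma on TPM (adjusted p = 0.0710), that for Atf6 was lost in 3 of 13 alternatives (adjusted p up to 0.382) and that for Atf1 in 7 of 13 (up to 0.802). The JUN relative Jund, chosen after its values were seen, had 32.5, 29.6 and 41.0 CPM in dKO, against 43.3, 20.8 and 51.2 CPM in WT, with WT replicate 2 the lowest, and was not called.

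Of 22 other immediate early transcription factor genes 18 were tested, and 5 fell, 1 rose and 12 were not called (median -0.17). Nr4a1, an orphan nuclear receptor gene induced with Egr1 in many cells, fell to 17.0 ± 1.08 CPM in dKO, against 60.1 ± 5.25 CPM in WT (log2 -1.82, SE 0.112). Id1 and Id2, inhibitors of helix-loop-helix factors and targets of BMP signalling, fell by 2.53 and 3.99, and Klf6 by 1.23, all on the log2 scale. Egr2 and Egr3, relatives of Egr1 chosen after their values were seen, were too low to test, at 0.220 ± 0.0572 and 0.167 ± 0.150 CPM in dKO and 0.462 ± 0.163 and 0.416 ± 0.070 CPM in WT. Srf, also chosen so, was not called (log2 0.07, SE 0.127).

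Of 30 other immediate early effector genes, all tested, 16 fell, 5 rose and 9 were not called, with a median of -0.47, and 3 rose without dKO replicate 2 or 3 and 2 by limma on TPM. Phlda1 fell to 4.93 ± 0.878 CPM in dKO, against 18.4 ± 3.5 CPM in WT, and Errfi1, a feedback inhibitor of EGF receptor signalling, to 10.5 ± 1.21 CPM in dKO, against 27.5 ± 3.28 CPM in WT. Kctd12, on chromosome 14, fell by 1.43 on the log2 scale. Ccn2, the connective tissue growth factor gene, rose instead, with 124 ± 1.75 CPM in dKO and 64.2 ± 3.29 CPM in WT (log2 0.95, SE 0.0844, edgeR quasi-likelihood adjusted p = 4.36e-05).

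Of 10 other MAP kinase phosphatase genes, all tested, 6 fell, 1 rose and 3 were not called, with a median of -0.56. By limma on TPM 2 fell and 0 rose, and 0 rose without dKO replicate 1 or 2 or WT replicate 3. Dusp9, an X-linked ERK phosphatase gene, had 27.5 ± 1.65 CPM in dKO and 66.7 ± 8.24 CPM in WT (log2 -1.28, SE 0.119), and Dusp5, which acts on ERK in the nucleus, 10.3 ± 0.426 CPM in dKO and 22.6 ± 0.424 CPM in WT (log2 -1.13, SE 0.111). Dusp8 fell by 1.59 and Dusp6, a feedback target of ERK, by 0.45 on the log2 scale, and the call for Dusp6 was lost in 2 of 13 alternatives (adjusted p up to 0.185) and that for Dusp8 in 1 (0.138). Of 18 genes for inducing kinases and SRF partners, 6 fell, 0 rose and 12 were not called (median -0.17). At an unadjusted p under 0.05 edgeR had 1 of these genes higher, and DESeq2 and limma on TPM called 0 higher, whereas 1 was called higher with library totals and 1 without WT replicate 2. By limma on TPM 3 fell. Those that fell included Elk3, an SRF partner, at 7.55 ± 1.2 CPM in dKO and 32.4 ± 2.31 CPM in WT, Mapk8 (JNK1, the kinase of JUN, on chromosome 14; log2 -1.12), Rps6ka3 (log2 -1.12) and Mapk14 (p38α; log2 -0.38), whose call was lost in 2 of 13 alternatives (adjusted p up to 0.317).

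Of 18 genes of the MYC family, its partners and antagonists, 5 rose, 0 fell and 13 were not called, with a median of 0.24. At an unadjusted p under 0.05 edgeR had 1 of these genes lower, and DESeq2 and limma on TPM called 0 lower. Without WT replicate 2, 1 gene of this list was called lower, and the count of 5 higher was 3 without dKO replicate 1 or 2 and 2 by limma on TPM. Mxi1 and Mxd4, which compete with MYC for MAX, rose by log2 0.63 (SE 0.0958) and 1.27 (SE 0.248), and Zbtb17 (MIZ1, a MYC-binding zinc finger factor) and Mlxip by 0.61 and 0.39. The call for Mxi1 was not made by limma on TPM (adjusted p = 0.0742), and that for Mlxip was lost in 4 of 13 alternatives (up to 0.261). Mycn, chosen after its values were seen, had 319, 318 and 369 CPM in dKO, against 323, 222 and 330 CPM in WT, and was not called. Of 30 MYC-linked growth genes, 7 fell, 5 rose and 18 were not called (median -0.14). Without WT replicate 2 11 fell, by limma on TPM 4 fell and 1 rose, and 2 rose without dKO replicate 1 or 2 and 3 without dKO replicate 3 or WT replicate 3. Ccnd1 (cyclin D1), Gnl3 (nucleostemin, on chromosome 14), Ldha and Tfrc fell by 1.13, 1.00, 1.00 and 0.99 on the log2 scale.

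Genes linked to AP-1 in the matrix went both ways, with 7 lower, 6 higher and 5 not called among 18 tested of 20 (median -0.12). Plaur, the urokinase receptor gene, fell to 20.4 ± 0.323 CPM in dKO, against 53.5 ± 7.06 CPM in WT, and Mmp14, on chromosome 14, by 1.13 on the log2 scale, while Tnc and Cd44 rose by 5.63 and 1.65. Of 15 heat shock and stress genes 6 fell, 1 rose and 8 were not called (median -0.15), and those that fell included Hsph1 (log2 -0.63), Hsp90aa1 (log2 -0.54), Trib3 (log2 -0.51) and Hmox1 (log2 -0.39). The count of 6 lower was 2 without dKO replicate 1 or WT replicate 1, 3 without dKO replicate 2 and 0 by limma on TPM, and these 4 genes each lost their call in 1 to 4 of 13 alternatives. The count of 1 higher was 0 without any one dKO library or WT replicate 1, and 2 without WT replicate 3, with library totals or by DESeq2.

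**Figure D4:**
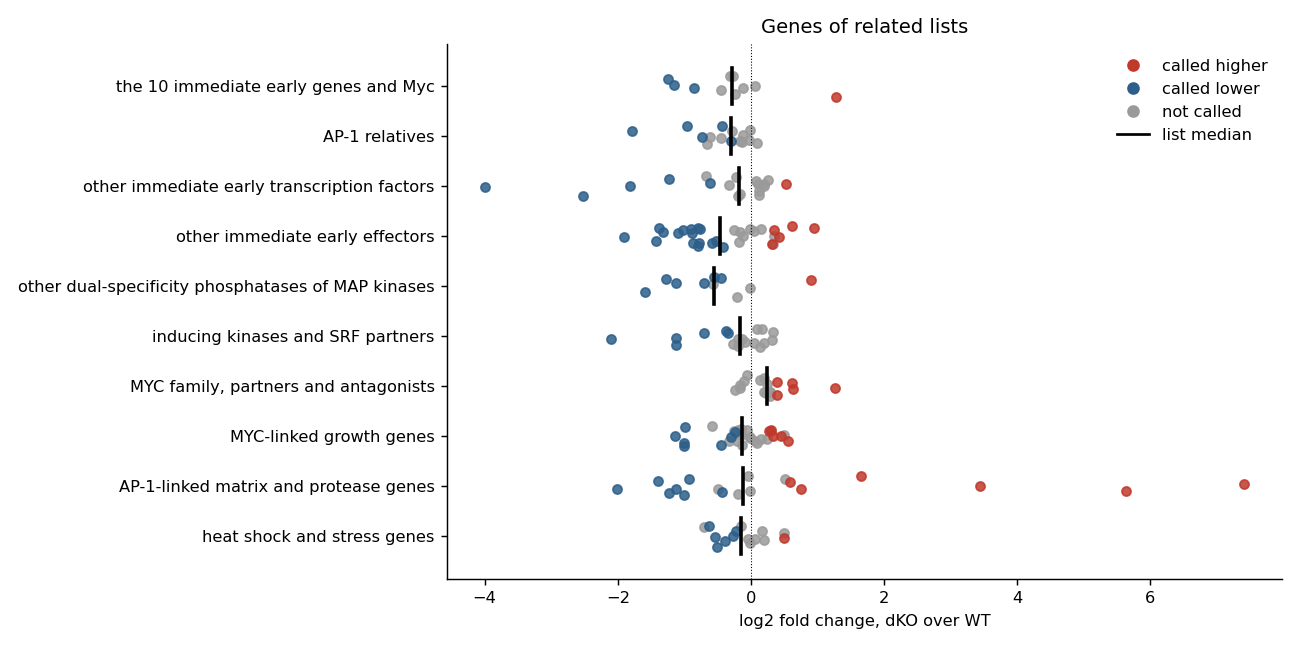
Fitted log2 fold changes of dKO over WT for the tested genes of each list (one point a gene, spread vertically for clarity), with the list median as a bar. Red points were called higher, blue points lower, and grey points were not called. The medians run from -0.56 for the other MAP kinase phosphatases to 0.24 for the MYC family and partners. The point farthest right is Mmp3, chosen after its values were seen, which had no WT counts, so its fitted position depends on the prior count.

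Markers of other cell types differed between the genotypes as well. Of 10 trophoblast markers 8 were tested and all 8 fell, summing to 57.9 to 64.7 CPM in dKO and 303 to 437 CPM in WT, with Tpbpa at 0 in every library. Krt8, Krt18, Krt7 and Hand1 were among them, at log2 fold changes of -3.98, -3.01, -3.65 and -5.06. Of 10 primitive endoderm markers 8 were tested, and 5 fell, 1 rose and 2 were not called, with sums of 587 to 604 CPM in dKO and 1168 to 1298 CPM in WT. Lama1, Col4a1 and Sparc fell by 2.17, 1.6 and 0.81, and Pdgfra rose by 1.34, on the log2 scale. Sparc made up most of the sums, at 502 ± 9.87 CPM in dKO and 878 ± 32.3 CPM in WT (SD, n = 3 each). Gata4 and Sox7, chosen after their values were seen, also fell and lie on chromosome 14. Of 12 fibroblast markers 10 were tested, and 5 rose and 5 were not called, with sums of 65.0 to 67.3 CPM in dKO and 40.6 to 51.8 CPM in WT, Acta2, Col1a2, Dcn and Postn rising by 1.18, 1.02, 1.85 and 2.13 on the log2 scale. The call for Postn was lost in 6 of 13 alternatives (adjusted p up to 0.127), namely without any one dKO library, without WT replicate 1 or 3, and by limma on TPM. Dcn and Postn rest on few counts. Dcn had 26, 37 and 21 counts in dKO, against 8, 12 and 4 in WT, and Postn 19, 22 and 11 in dKO, against 6, 6 and 0 in WT. Col1a1, chosen after its values were seen, was not called (log2 -0.14, SE 0.152). The part of such cells in the values of Egr1, Jun, Junb and Dusp1 was not tested, and in these bulk libraries fewer cells of a type and less RNA per cell cannot be told apart.

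**Figure D5:**
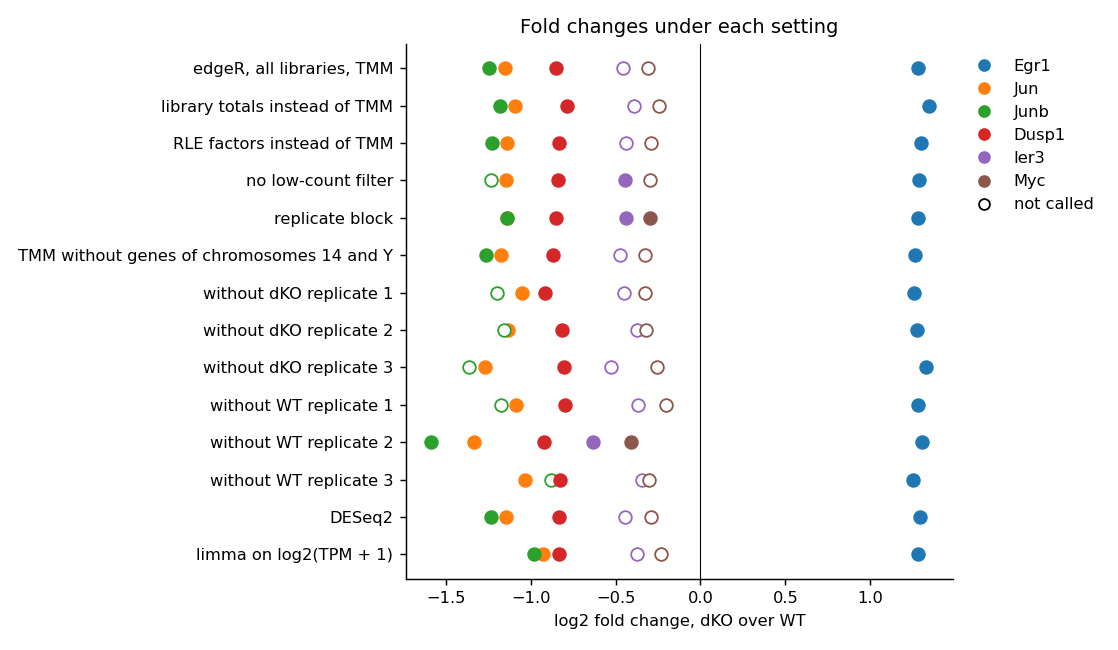
Fitted log2 fold changes of dKO over WT for 6 genes under the reported fit (top) and 13 alternatives. Filled points were called at an adjusted p under 0.05 and open points were not. Egr1, Jun and Dusp1 are filled throughout, Junb is open in 6 alternatives, and Ier3 and Myc are filled in 3 and 2.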

How the data were processed

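The authors deposited 1 table with an expected count and a TPM value per gene and library, per the file headers, together with the authors' mean TPM per genotype. It also holds the authors' fold (ratio), log2 fold change, p-value and adjusted p-value of dKO over WT, per the file headers, quoted here only as the authors' deposited table. Build GRCm39 and the tools RSEM, HISAT2 2.1.0, FastQC and DESeq 1.26.0 appear, without roles, in the submitters' processing notes. Annotation release and strand setting are not given in the sources used here. Reads of overlapping or near-identical genes are uncertain.

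Expected counts were rounded to whole numbers and tested with edgeR 4.0.16 in R 4.3.3 (filterByExpr with a minimum count of 10, TMM, robust quasi-likelihood fit, genotype only), adjusted over all 15714 genes tested. CPM values are TMM-scaled. Each SE was taken as the absolute log2 change divided by the square root of F, and intervals use the fit's degrees of freedom. Alternatives were library totals, RLE factors, TMM without genes of chromosomes 14 and Y, DESeq2 1.42.0, no filter, a replicate block, limma 3.58.1 on log2(TPM + 1), and each library left out. The step was tested on simulated data. Chromosomes and transcripts came from GENCODE M21 (GRCm38), and only its chromosome names, exon counts and UTR letters were used. It gave a chromosome for 51933 of 57180 genes. Python 3.11.15, pandas 2.3.3, NumPy 2.4.6 and matplotlib 3.10.9 were used.

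The members and lists were chosen with earlier results of these data known. All 10 members are named, with the 4 genes of smallest p in each other list. Any further gene was picked with its values in view, and the text says so. The promoter motifs and the UTR count were added after the values were seen.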

Additional observations from a re-analysis of the deposited data

How the results depend on the processing

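Egr1 stayed higher, and Jun and Dusp1 stayed lower, with a call in each of the 13 alternatives. Leaving out each library in turn gave 2 to 5 of the 10 genes called lower, 1 called higher, 3588 to 6833 genes called in all (1743 to 3364 higher and 1845 to 3469 lower), and 15 to 29 genes of the 9 related lists higher and 44 to 72 lower. The replicate number as a block gave 5 of the 10 genes lower and 6794 calls in all, against 3 and 5392 without it, the added genes of the 10 being Ier3 (adjusted p = 0.0176) and Myc (0.0362), and it gave 8 in place of 5 higher genes among the MYC family and partners, 8 in place of 5 higher and 11 in place of 7 lower MYC-linked growth genes, and 2 in place of 0 higher genes among the inducing kinases and SRF partners. Whether the numbers pair the samples is not known. The deviations of same-numbered libraries correlated at -0.08, 0.27 and 0.33 for replicates 1, 2 and 3. Not every library correlated best with its own number, and 3 libraries a genotype are too few to decide this. limma on log2(TPM + 1) called 2504 genes in all, 1453 higher and 1051 lower, where edgeR called 2578 and 2814, and 12 genes of the lists higher and 31 lower, where edgeR called 24 and 58. The cause was not tested. Leaving out each library in turn gave Ier2 log2 fold changes from -0.20 (without WT replicate 2) to 0.30, with -0.05 without dKO replicate 3, in place of 0.06, and gave Atf3 values from -0.65 to 0.0081 (without WT replicate 3), in place of -0.24. limma on TPM gave 0.12 for Atf3 and 0.12 for Atf1. Counts of calls in single lists moved by over 1.5 times in 44 cases, under library totals, DESeq2, the block, limma on TPM or with a library left out. Fos, Fosl1 and Atf3 rest on few counts, 65 to 110 counts per genotype in all.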
